A study of Homo sapiens with 6 samples.

Results

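SECTM1 (ENSG00000141574) was followed in the established human cell line SK-OV-3, from an ovarian cancer, with and without fulvic acid (FA), a water-soluble fraction of humic matter. It was 1 of the 459 genes in the deposited table and was taken from it by its symbol. The gene was chosen by its counts and FPKM (a fragment level adjusted for gene length and depth) in these same libraries, where it rose strongly with FA, so its levels are given as a description with no test. The control group held 3 libraries of cells labelled wild type and untreated. The FA group held 3 libraries of the same cells labelled wild type and given 100 µg/ml FA for 48 h. Both groups are 1 cell line in culture, with no lymphocytes labelled as present, and the labels name no separate cultures within a group, so the spread between libraries may be technical. In these bulk libraries, more cells with the transcript and more transcript per cell cannot be told apart.

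SECTM1, also known as K12, is a small transmembrane protein with an immunoglobulin-like outer domain, and a soluble form is released from cells. It is made by epithelial and myeloid cells and binds CD7, a receptor on T cells and natural killer cells. Interferon gamma, which acts through JAK kinases and IRF1, is known to raise SECTM1 in several cell types. RNA levels do not measure the protein at the membrane or its release.

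In GENCODE release 29 (GRCh38), SECTM1 lies on the minus strand of chromosome 17, positions 82321024 to 82334074. It has 8 annotated transcripts. The longest, ENST00000269389, has 5 exons and 2235 bases, and the others have 556 to 1030 bases. No exonic base of SECTM1 is shared with another annotated gene, antisense genes included. CD7, the gene of its receptor, is the next gene on the same strand, 3421 bases beyond the 3′ end of SECTM1. CD7 was not among the 459 genes. Of 57 protein-coding genes annotated within 1 Mb of SECTM1, 0 were in the table, while 18 listed genes, SECTM1 among them, lie on chromosome 17. Every gene of the table had passed the authors' limits on fold change and FDR (an adjusted p-value), so a gene outside it may still have been expressed.

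The region around the start of SECTM1 was searched for motifs of the pathways that the gene and the study are linked to. The RefSeq promoter (GRCh38.p14) covers 250 bases before the start at position 82333766 and 50 bases after it, and 63% of its bases are G or C. Both strands were searched for 5 motifs: GCGTG, the core bound by the aryl hydrocarbon receptor (AHR) with ARNT, its longer form TTGCGTG, GAAANNGAAA, the core of the interferon-stimulated response element, TTCNNNGAA, the interferon-gamma activated site, and a single form of the kappaB site, 10 letters long. SECTM1 held 2 matches to GCGTG and 1 to GAAANNGAAA, and no match to the other 3 motifs. The 3 windows are shown because they place these letters relative to the start, with 1 window each from CYP1A1 and ISG20, listed genes that also rose and hold 1 of the motifs. Capitals mark the match, each sequence is written 5′ to 3′ on the gene's own strand, and positions count from the start of the gene, with no base 0.
SECTM1, GCGTG on the gene's strand at -180 to -176, chr17:82333929-82333958, minus strand: ctgcttcctttaGCGTGaaccgcgggtgcg
SECTM1, GCGTG on the opposite strand at -131 to -127, chr17:82333880-82333909, minus strand: taaattcaccgtCACGCttgttgtgaacgc
SECTM1, GAAANNGAAA on the opposite strand at -3 to 7, chr17:82333750-82333779, minus strand: ctctcgtgtcTTTCATTTTCctggggctcc
CYP1A1, GCGTG on the gene's strand at -57 to -53, chr15:74725568-74725597, minus strand: ccagggaaggagGCGTGgccacacgtacaa
ISG20, GAAANNGAAA on the gene's strand at -69 to -60, chr15:88638937-88638966, plus strand: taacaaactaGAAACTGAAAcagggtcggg

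All 3 SECTM1 windows also fall in exon 1 of ENST00000269389 (positions 82333700 to 82333998), and the annotated start codon of that transcript is in exon 2. That transcript starts further upstream than the RefSeq start. GCGTG is common: it was present in 36.5% of 35116 RefSeq promoters of this length, and GAAANNGAAA in 3.57%, TTCNNNGAA in 7.66%, TTGCGTG in 1.16% and the kappaB form in 0.191%. None of the SECTM1 matches overlapped another. Of the 459 genes, 293 had a promoter in the RefSeq set, 72 of them higher, SECTM1 itself among these, and 221 lower with FA. Counting a gene with any matching promoter, GAAANNGAAA was present in 5 of the 72 higher genes (6.94%) and in 15 of the 221 lower genes (6.79%). In the same order, GCGTG was present in 43 (59.7%) and 109 (49.3%), and its longer form TTGCGTG in 0 and 3 (1.36%). TTCNNNGAA was present in 6 (8.33%) and 27 (12.2%), and the kappaB form in 0 and 1 (0.452%). The shares over all RefSeq promoters count promoters and those of the listed genes count genes, so the 2 kinds cannot be compared directly. These are descriptions of letters, and binding was not measured.

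SECTM1 was low in all control libraries and high in all FA libraries. Its FPKM was 0.427, 1.03 and 0.975 in control 1, 2 and 3, and 11.2, 10.9 and 11.4 in FA 1, 2 and 3. The read counts behind these values were 42, 104 and 101 in control 1, 2 and 3, and 947, 1076 and 1217 in FA 1, 2 and 3. The groups did not overlap, and the lowest FA library lay 10.5-fold above the highest control library in FPKM. Leaving WRB-SH3BGR aside, non-overlap in FPKM also held for every other listed gene named here. All were listed for a difference in this contrast. The share of all listed genes without overlap was not computed, so non-overlap does not set SECTM1 apart from them. In order of FPKM the libraries ran control 1, control 3, control 2, FA 2, FA 1 and FA 3. Control 2 and control 3 were close to each other, as were the 3 FA libraries, and control 1 stood apart, 2.42-fold below control 2.

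Set against the implied depth of each library (39900000 to 50900000 fragments, with overlapping ranges in both groups), SECTM1 gave 0.966, 2.13 and 2.13 CPM (counts scaled to that depth) in control 1, 2 and 3. In the FA libraries it gave 23.7, 24.1 and 23.9 CPM. The 95% Poisson interval, which covers counting error only, was 0.696 to 1.31 in control 1, below those of control 2 (1.74 to 2.58) and control 3 (1.73 to 2.59). The 3 FA intervals overlapped each other, from 22.2 to 25.3 in FA 1 to 22.7 to 25.6 in FA 2. The controls thus differed among themselves by more than counting error, and the FA libraries did not.

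**Figure D1:**
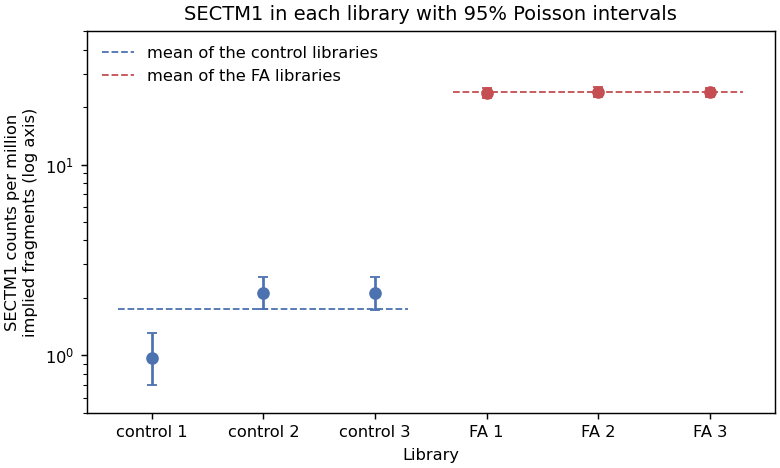
SECTM1 in CPM (counts scaled to implied depth) in each library on a log axis, with 95% Poisson intervals as bars and group means as dashed lines. The FA libraries sit between 23.7 and 24.1, and control 1, at 0.966, sits below control 2 and control 3.

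The mean rose from 0.812 ± 0.33 FPKM (SD, n = 3) in the control group to 11.2 ± 0.27 FPKM (SD, n = 3) in the FA group. In an edgeR quasi-likelihood fit of all 459 genes scaled by implied depth, the log2 fold change of SECTM1 was 3.77 with a standard error of 0.25. In the authors' deposited table its log2 fold change is 3.83 and its FDR 1.7e-44, values that belong to the contrast the gene was chosen from. Without control 1, the control mean was 1.00 FPKM and the fit gave a log2 fold change of 3.49. The authors' deposited table lists 117 genes as higher and 342 as lower, which is 25.5% and 74.5%. In the fit, at an adjusted p threshold of 0.05, every listed gene was called, with the same shares. All had been selected by the authors in this same contrast, so these calls give no independent support.

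Among the 117 higher genes, SECTM1 had the second largest log2 fold change, after CYP1A1, a cytochrome P450 and the gene in the study's title (log2 5.91, SE 0.19). The next in order were SH3BGR (log2 3.10, SE 0.21) and ANGPTL2, a secreted angiopoietin-like protein (log2 2.93, SE 0.14). By size in either direction SECTM1 was number 11 of 459, behind CYP1A1 and 9 lower genes. The rank of 2 among higher genes was unchanged in each of the 15 alternative fits. The fits that changed only the scaling moved all genes by nearly the same amount and could hardly change a rank. SECTM1 was also chosen for its rise in these libraries, so the unchanged rank gives no independent support. By FDR, in the authors' deposited table, SECTM1 was number 21. By level, in mean FPKM, SECTM1 was number 360 of 459 in the control group and number 75 in the FA group. Thus 21.6% of the listed genes had a lower mean FPKM in the control group and 83.7% in the FA group, where the median listed gene stood at 1.48 FPKM.

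**Figure D2:**
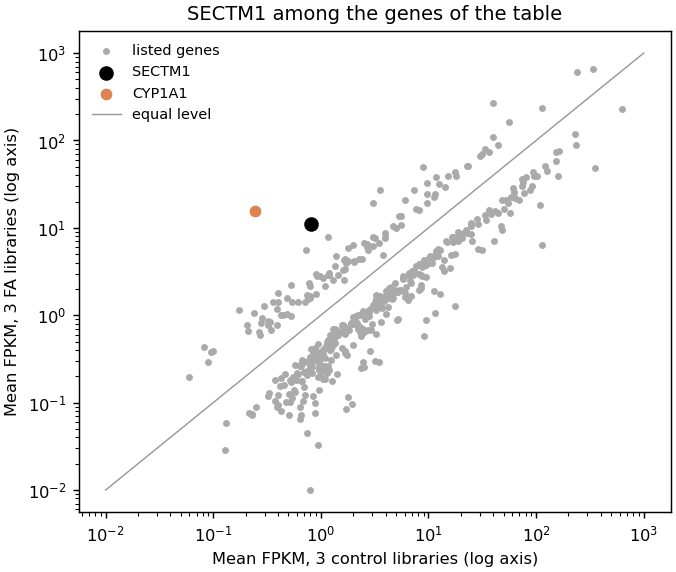
Mean FPKM of the 459 listed genes in the 3 control libraries (x axis) and the 3 FA libraries (y axis), both on log axes, with the line of equal level. SECTM1, at 0.812 and 11.2 FPKM, lies far above the line, with CYP1A1 the gene farther from it on that side.

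SECTM1 varied more among the control libraries than among the FA libraries. Its FPKM had a coefficient of variation of 41.2% in the control group and 2.39% in the FA group. On the log2 scale of CPM, the SD was 0.65 in the control group. Of 103 annotated genes whose mean control count was within 2-fold of that of SECTM1, 4 had a larger SD there, and the median was 0.25. In the FA group its SD was 0.011, and 79 of 80 genes of like count there had a larger one, with a median of 0.12. The FA values, 23.7 to 24.1 CPM, lay within each FA Poisson interval, that of FA 1 being 22.2 to 25.3. An SD this small is less than counting error gives, so it does not measure how tightly SECTM1 was held.

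Most of the control spread lay in 1 library. In CPM, control 1 stood at 0.454 times the mean of control 2 and control 3, and 2 of the 371 annotated genes whose mean reached 50 counts had a lower ratio. SECTM1 is rich in G and C, at 63.0% of its longest transcript, above 91.6% of these genes, whose median was 51.9%. Across the 371 genes, the deviation of control 1 from its group mean fell with GC content (Spearman correlation across genes -0.76). Among the 30 genes within 2 percentage points of the GC content of SECTM1, control 1 was the lowest control in 27. The median ratio of these 30 was 0.723, with a range of 0.448 to 1.04, against 0.951 over all 371. SECTM1 was therefore near the low end of the genes of like GC content. The part of GC content in the control values of SECTM1 was not tested, and the log2 fold change without control 1 is given above.

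**Figure D3:**
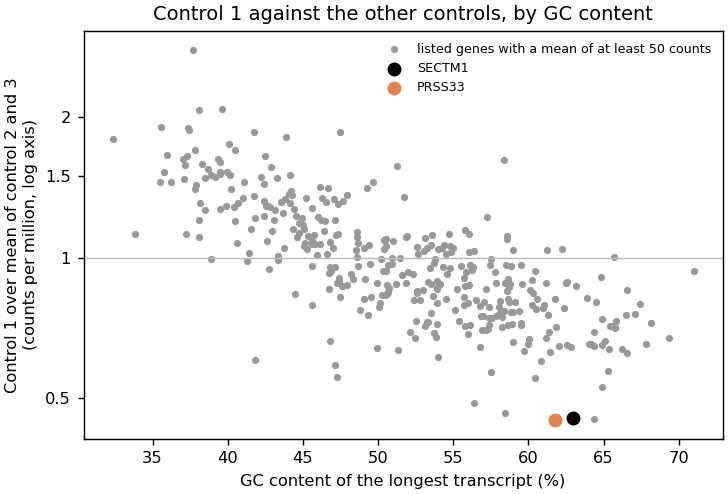
Ratio of control 1 to the mean of control 2 and 3 in CPM (log axis) against GC content of the longest transcript, for 371 listed genes. The ratio is lower at high GC content, and SECTM1 (0.454) and PRSS33 (0.448) lie at the lower edge.

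Counts, FPKM and implied depth together gave the transcript length by which the authors' FPKM of SECTM1 was scaled. It was 2261, 2058 and 2185 bases in control 1, 2 and 3, and 2113, 2208 and 2090 bases in FA 1, 2 and 3. The groups overlapped. All 6 values were close to the 2235 bases of the longest transcript and far from the 556 to 1030 bases of the other 7. The 2 groups were therefore scaled by nearly the same length, and the fold of the means was 13.8 in FPKM and 13.7 in CPM. How reads were divided among transcripts was not given in the sources used here.

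The genes with a pattern most like that of SECTM1 over the 6 libraries were PRSS33, ANGPTL2, SH3BGR, HLA-DMB and IGFBP1. Likeness was the root mean square difference between log2(FPKM + 0.1) profiles, each centred on its own mean, among the same 371 genes. The difference ran from 0.51 for PRSS33 to 0.67 for IGFBP1, so that none matched the size of the SECTM1 step. Both groups of libraries enter this measure, and a large increase with FA is most of what it reads.

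PRSS33, a serine protease, was the nearest over all 6 libraries. It was the last of the 5 without control 1, where CYP1B1 came first, and with log2(FPKM + 1), where ANGPTL2 came first. Its FPKM was 0.668, 1.24 and 1.59 in control 1, 2 and 3, and 7.89, 7.70 and 8.01 in FA 1, 2 and 3. As with SECTM1, control 1 was well below the other controls, and the GC content was 61.8%. Given in the same order of libraries, ANGPTL2 had 3.67, 3.12 and 3.87 FPKM without FA and 27.5, 27.9 and 25.9 FPKM with it, with no such gap in control 1. HLA-DMB, a chaperone that loads peptides onto MHC class II, had 2.78, 2.43 and 3.96 FPKM without FA and 18.6, 19.9 and 18.5 FPKM with it. IGFBP1, a secreted binder of insulin-like growth factors, had 7.60, 8.57 and 10.5 FPKM without FA and 52.0, 51.6 and 47.2 FPKM with it. For SH3BGR, 62.8% of the exonic bases are shared with other genes, so its counts are uncertain. The listed gene WRB-SH3BGR overlaps it, has 100% of its exonic bases shared, and was lower with FA (log2 fold change -2.16, SE 0.50). How reads were divided between these genes was not tested. PRSS33, ANGPTL2 and HLA-DMB had a RefSeq promoter, and none of the 5 motifs was found in those windows.

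**Figure D4:**
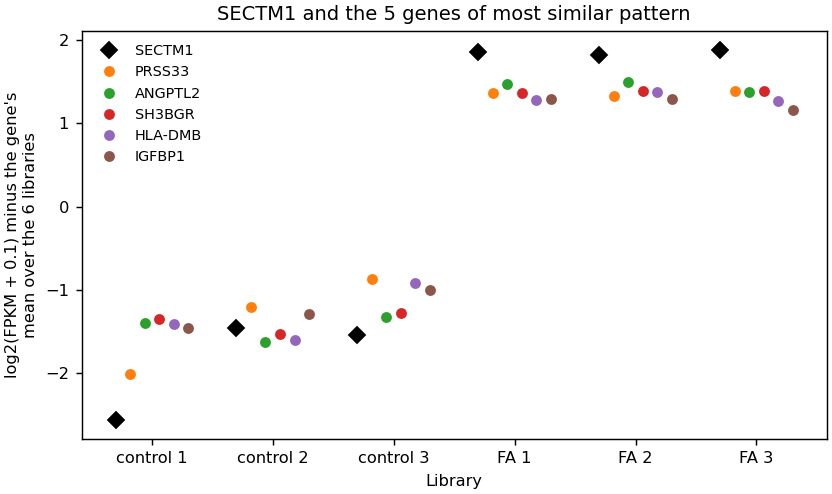
Centred log2(FPKM + 0.1) of SECTM1 (diamonds) and the 5 genes of most similar pattern in each library. SECTM1 has the largest step between the groups, and in control 1 SECTM1 and PRSS33 lie below the other 4 genes.

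SECTM1 is known as an interferon-gamma inducible gene, so its change was set beside a list of 61 genes of the interferon-gamma response. Of these, 10 were in the table, 1 higher and 9 lower with FA, against 25.5% higher and 74.5% lower among all listed genes. With scaling computed over the listed genes alone, by TMM (trimmed mean of M-values) or DESeq2 size factors, 2 of the 9 stayed past the threshold, IFITM1 and TNFSF10, and IRF1 changed sign. Over all listed genes, 81 were called lower with TMM and 87 with DESeq2 size factors, beside 342 in the fit reported. Of the 459, 99 changed sign under at least 1 of these scalings, so the loss was not particular to this list. The median log2 fold change of the 10 was -1.47, beside -1.28 over all 459 genes. SECTM1, at 3.77, went the opposite way to most of them, as it did to the 74.5% of all listed genes that were lower. ISG20, an exonuclease that degrades RNA, was the member that rose with it. Its FPKM was 1.60, 1.70 and 2.05 in control 1, 2 and 3, and 5.998, 6.64 and 5.13 in FA 1, 2 and 3 (log2 fold change 1.68, SE 0.18).

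IRF1 and SOCS3, of the signalling arm of the pathway, were lower while SECTM1 was higher. IRF1, the transcription factor that carries the response to many target genes, was at 22.0, 24.4 and 28.0 FPKM without FA and 12.5, 11.2 and 10.3 FPKM with it (log2 fold change -1.11, SE 0.14). With TMM over the listed genes its value was 0.14. SOCS3, an inhibitor of JAK signalling, was at 11.9, 18.2 and 18.3 FPKM without FA and 6.20, 4.88 and 3.76 FPKM with it (log2 fold change -1.71, SE 0.22). SOCS3 was the only one of the 10 genes of the list of receptor and signalling genes in the table.

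The other 7 members were lower as well. TNFSF10, the death ligand TRAIL, had a log2 fold change of -2.16 (SE 0.19), IFITM1 of -1.72, OAS1 of -1.62, IFITM2 of -1.48, IFITM3 of -1.47, OAS3 of -1.45 and OAS2 of -1.38. IFITM proteins block virus entry, and OAS enzymes sense double-stranded RNA. Over 20% of the exonic bases of IRF1, IFITM1, IFITM2 and IFITM3 are shared with other genes. Of the 8 members with a RefSeq promoter, 5 held the GAAANNGAAA motif that SECTM1 and ISG20 hold: ISG20 itself, and IFITM1, IFITM3, OAS3 and TNFSF10, which were lower. Genes with this motif in the windows searched were thus found among both higher and lower genes.

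**Figure D5:**
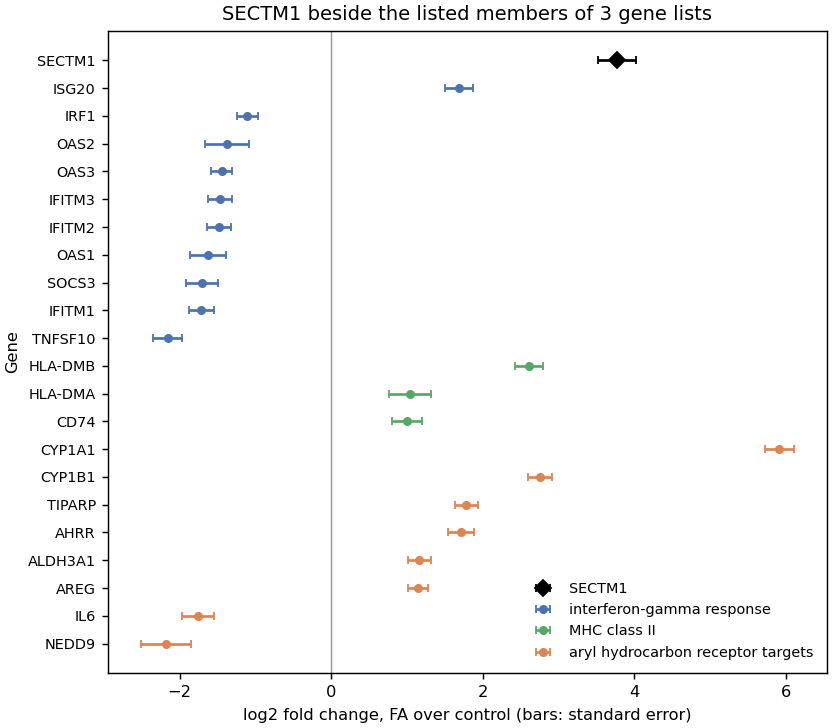
Log2 fold change (FA over control) with its standard error for SECTM1 and the listed members of the interferon-gamma response, MHC class II and AHR target lists. SECTM1 lies on the higher side with ISG20, the 3 class II genes and 6 of 8 AHR targets, and the other 9 interferon-gamma genes lie below 0, IRF1 above it with TMM over the listed genes.

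MHC class II genes are a further arm of the interferon-gamma response, through the coactivator CIITA. Of 16 genes in that list, 3 were in the table and all 3 were higher, as were SECTM1 and 25.5% of all listed genes: HLA-DMB (log2 fold change 2.61, SE 0.18), HLA-DMA (1.04, SE 0.28) and CD74 (1.00, SE 0.20), the invariant chain. CIITA and the genes of the peptide-binding chains HLA-DRA, HLA-DPA1 and HLA-DQA1 were not among the 459.

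SECTM1 was also set beside 46 other ligands of receptors on T or natural killer cells. Of these, 2 were in the table and both were lower, as were 74.5% of all listed genes. CD70, the ligand of CD27, was at 58.0, 78.3 and 94.5 FPKM without FA and 27.5, 24.4 and 22.5 FPKM with it (log2 fold change -1.63, SE 0.18). The second was TNFSF10. With TMM over the listed genes CD70 did not pass the threshold. Of 15 genes for CD7 and other lymphoid receptors, and of 21 leukocyte markers, 0 were in the table. Of 25 markers fixed to check the cell type, 1 was in the table, the fibroblast gene COL1A1. It was lower, but did not pass the threshold with TMM over the listed genes. The 6 epithelial markers were not in the table, so the labelled cell type could not be checked from these genes.

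In a list of 22 AHR targets, 8 were in the table, 6 higher and 2 lower, beside 25.5% higher and 74.5% lower among all listed genes. CYP1A1 had 0.191, 0.266 and 0.269 FPKM without FA and 15.5, 16.4 and 15.4 FPKM with it. With FA, SECTM1 stood at 11.2 FPKM beside 15.8 FPKM for CYP1A1, and in the control group at 0.812 beside 0.242 FPKM. The other higher members were CYP1B1 (log2 fold change 2.75), TIPARP (1.78), AHRR (1.71), ALDH3A1 (1.16) and AREG (1.15), all with a smaller log2 fold change than SECTM1. NEDD9 (-2.18) and IL6 (-1.76), of which 20.7% of the exonic bases are shared with other genes, were lower, and IL6 did not pass the threshold with TMM over the listed genes.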

How the data were processed

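Polyadenylated RNA of 6 libraries was sequenced. Per the file headers, the deposited table holds the authors' raw counts, FPKM, FDR (an adjusted p-value) and log2 fold change for 459 genes. All of them were past the authors' limits, so other genes were not analysed here. Reads were placed on GRCh38, per the submitters' processing notes, and the sources used here name no aligner, counter, strand setting or test. Identifiers of 399 genes matched GENCODE release 29, and 60 gene models had none.

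Implied depth came from the ratio of count to FPKM over 180 genes whose lowest library had 200 counts or more. Its scale came from 16 genes with a single transcript and at least 100 counts. The total of the listed genes was 561604 to 796663 counts per library. Counts were fitted by the quasi-likelihood test of edgeR 4.0.16 in R 4.3.3 (group as the only term, Benjamini-Hochberg adjustment over 459 genes, threshold 0.05). Standard errors were taken as the size of the log2 fold change over the root of its F statistic. The fit was tested on simulated counts of the 459 genes, 200 of them changed, up and down in equal number. It called 100% of 66 genes changed 13-fold and 0.386% of unchanged genes. Smaller changes were simulated too, and their rates are not given here. The listed genes were all selected and mostly lower, so these rates do not carry over to them. Alternatives used limma 3.58.1, DESeq2 1.42.0, other scalings, a minimum of 50 counts, a replicate block and leaving out each library. Promoters are from RefSeq. Sample titles gave the groups and replicate numbers.

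Named genes are SECTM1, all list members in the table, the 5 genes of most similar pattern and the genes next to SECTM1 by log2 fold change. WRB-SH3BGR is named because it overlaps SH3BGR. The gene, the 8 lists, the motifs and the alternatives were chosen with earlier results of these data known. SECTM1 and the lists were not tested on their own: the FDR of SECTM1 is the authors', and members that passed a threshold did so in a fit of all 459 genes.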

Additional observations from a re-analysis of the deposited data

How the results depend on the processing

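SECTM1 was higher with FA under all 15 alternative fits. Its log2 fold change was 3.77 in the fit reported and 3.49 to 3.94 when each library was left out in turn, lowest without control 1. Scaling computed over the listed genes alone gave 5.02 with TMM and 5.02 with DESeq2 size factors, and log2(FPKM + 1) with limma gave 2.77, since a pseudocount of 1 exceeds the mean control level. TMM and DESeq2 size factors moved the median log2 fold change of all listed genes by 1.24 and column totals by 0.24. Relative to that median SECTM1 lay 5.05 higher in the fit reported and 5.05 higher with TMM. A change of scaling moves all genes nearly alike, so this distance could hardly change. Under TMM and DESeq2 size factors, 2 of the 9 lower interferon-gamma genes, IFITM1 and TNFSF10, still passed the threshold (2 in each), and IRF1 changed sign. Over all listed genes, 81 were called lower with TMM and 87 with DESeq2 size factors, beside 342 in the fit reported. By construction these scalings set the typical listed gene to no change. With the replicate block the log2 fold change of SECTM1 was 3.82. The deviations of same-numbered libraries had correlations of 0.012, 0.14 and -0.22 over 418 genes. Those of differently numbered libraries ran from -0.24 (control 1 with FA 2) to 0.23 (control 1 with FA 3). Whether same-numbered libraries were paired cannot be decided from 3 libraries per group. The block moved no count of calls (117 higher, 342 lower). Of the 5 genes of most similar pattern, 4 were shared with log2(FPKM + 1) and 4 without control 1, CYP1B1 entering in both. At 42 counts, control 1 limits the precision of the control level.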
